A study of Homo sapiens with 6 samples.

Results

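Notch signalling genes were followed as 10 rows of the deposited expression table, chosen by their gene symbols from 20289 genes in all: the receptors NOTCH1, NOTCH2, NOTCH3 and NOTCH4, the ligands JAG1, JAG2 and DLL1, and the target genes HES1, HEY1 and NRARP. Their mRNA was sequenced in 6 libraries that carry the cell line name T24, an established human bladder cancer line grown in RPMI medium with fetal bovine serum. Cells of 3 libraries received Vector plasmids as the control (the Vector label), and cells of the other 3 a pcDNA3.1 plasmid with LINC00665, a long non-coding RNA (the LINC00665 label), by Lipofectamine lipofection. The question is how overexpressed LINC00665 bears on transcript levels. The design text names groups of 3 independent experiments, and the labels number the replicates without saying whether they are separate cultures. The p-values measure the spread between these samples, and how much of it is technical is not known.

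Notch receptors are membrane proteins that are activated by Jagged or Delta-like ligands on a neighbouring cell. Ligand pulling lets ADAM10 and then the gamma-secretase complex cut the receptor, and the freed intracellular domain enters the nucleus, where it joins the DNA-binding protein RBPJ and a Mastermind coactivator to switch on HES, HEY and NRARP genes. In bladder cancer, loss-of-function changes in Notch genes and tumour-promoting activity of NOTCH2 have both been described.

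The target gene promoters are shown first because Notch acts on transcription through RBPJ at such sites. Promoter sequences from RefSeq (GRCh38.p14) were matched by symbol for 8 of the 10 genes (all except DLL1 and HEY1), and the 250 bases before the start were searched on both strands for TGGGAA, the core letters of the RBPJ motif, and for CACGNG, letters bound by HES proteins. The 2 motifs do not overlap in these sequences. In the lines below capitals mark every match to either motif, on either strand, and each sequence runs from 5′ to 3′ along the gene's own strand. HES1 (chr3:194135898-194136147, plus strand) and NRARP (chr9:137302272-137302521, minus strand) are the targets with a sequence.
HES1: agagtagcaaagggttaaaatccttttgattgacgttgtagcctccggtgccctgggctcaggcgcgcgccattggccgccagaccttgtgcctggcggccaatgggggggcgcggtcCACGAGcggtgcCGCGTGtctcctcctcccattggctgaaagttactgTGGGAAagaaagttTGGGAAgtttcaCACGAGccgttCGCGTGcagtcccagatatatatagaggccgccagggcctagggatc
NRARP: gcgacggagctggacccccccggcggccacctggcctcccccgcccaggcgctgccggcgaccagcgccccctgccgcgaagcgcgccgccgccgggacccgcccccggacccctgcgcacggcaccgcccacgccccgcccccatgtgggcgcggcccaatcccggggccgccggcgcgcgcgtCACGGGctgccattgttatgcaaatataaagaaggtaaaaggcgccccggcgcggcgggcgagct
The HES1 promoter held 2 copies of TGGGAA on the plus strand of the gene, at 84 to 79 and 70 to 65 bases before the start, and the first of them is also a match to the longer GTGGGAA. It held 4 matches to CACGNG, at 132 to 127, 120 to 115, 58 to 53 and 47 to 42 bases before the start. NRARP held 0 copies of TGGGAA in this window and 1 match to CACGNG, at 65 to 60 bases before the start. Over 35116 RefSeq promoters of the same length, 20.8% held TGGGAA, 5.43% GTGGGAA and 26.7% CACGNG. Among the 8 Notch genes matched, 1 held TGGGAA (HES1) and 4 held CACGNG (NOTCH3, JAG2, HES1 and NRARP).

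The libraries held 17289788 to 22725687 expected counts, and levels are given as CPM, that is counts relative to library size after scaling by the trimmed mean of M-values (TMM). A test for sample mix-ups found that 3 of 6 disagreed with their stated line, and without these no comparison between the labels is left; groups are therefore named by label only. The cell line and the plasmid cannot be told apart in these libraries. LINC00665 itself has 0 rows in the table, so its overexpression was not checked here. Of 11 urothelial markers, 2 reached 1 CPM under the Vector label and 8 under the LINC00665 label, with summed levels of 7.46 to 10.9 and 4160 to 4910 CPM; UPK3A and KRT20 had 0 counts under the former and KRT20 under the latter. Of 8 renal tubule markers, 5 reached 1 CPM under the Vector label (sum 381 to 544 CPM) and 1 under the LINC00665 label (sum 15 to 16.4 CPM), where CDH16 had 0 counts. The part of these differences in the results below was not tested, and in bulk RNA fewer cells of a type and less RNA per cell cannot be told apart.

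Most Notch genes were more abundant under the LINC00665 label: 2 of the 4 receptors, all 3 ligands and all 3 targets were higher, and 0 members were lower. With a threshold of 0.05 on the adjusted p (edgeR quasi-likelihood, Benjamini-Hochberg), 8 of the 10 members were called higher, whereas 34.2% of the 13552 genes tested were higher, 29.3% were lower and 63.5% were called in either direction. The same 8 members did not overlap between the labels in CPM, against 70.2% of all tested genes in either direction 37.9% being higher and 32.3% lower. The filter on low counts bears on 4 of the 8, since NOTCH3, DLL1, HEY1 and NRARP passed it only through the LINC00665 label and therefore could be called in that direction alone. Among genes with a mean of 1 CPM or more under both labels, 5 members were tested and 4 were higher (NOTCH1, JAG1, JAG2 and HES1), with 28.6% of 11285 genes higher. The median log2 fold change of the 10 members was 3.32, against 0.03 over all tested genes. This median includes the 4 members that passed the filter only through the LINC00665 label, which raises it. The members were chosen with earlier results of these data known. The shares and medians set beside all genes therefore do not test whether Notch genes stand out.

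**Figure D1:**
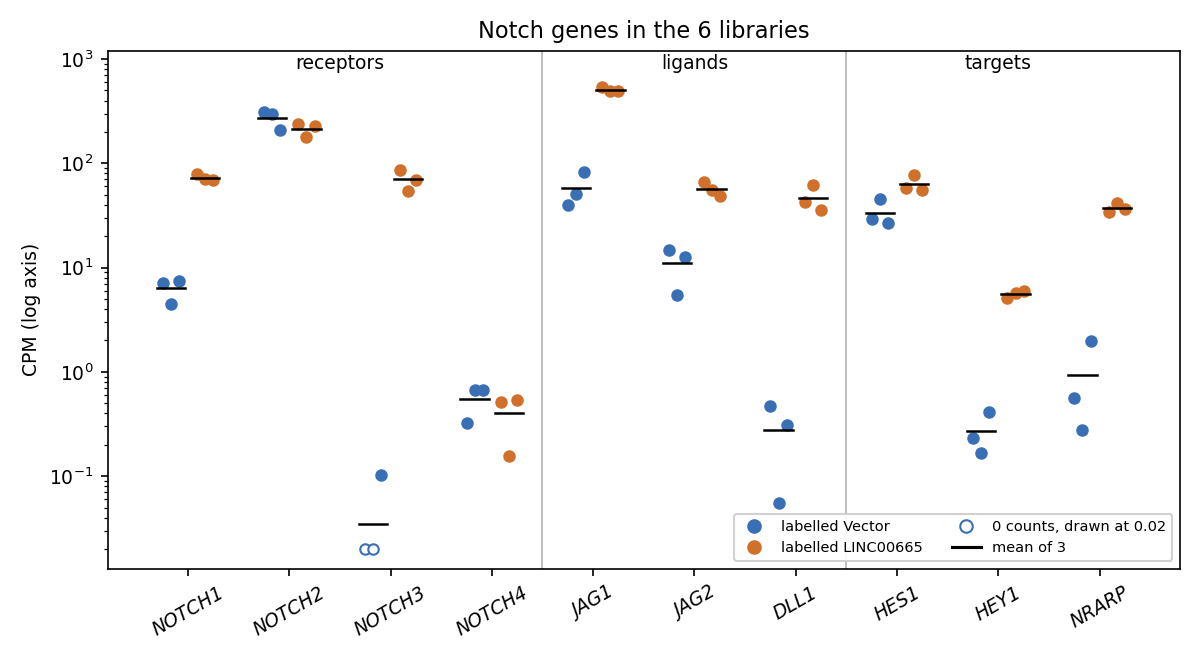
CPM of the 10 Notch genes in each library on a log axis, with the mean of each label as a black bar and libraries at 0 counts as open points at the foot. NOTCH2, at 178 to 307 CPM, and NOTCH4, at 0.158 to 0.673 CPM, overlap between the labels, while the other 8 genes are separated, from HES1 with 26.8 to 45 against 55 to 76.5 CPM to NOTCH3 with at most 0.104 against at least 54.2 CPM.

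NOTCH2 was the receptor with the highest level under both labels, and NOTCH1 and NOTCH3 were the receptors that differed. In GRCh38 NOTCH1 lies on chromosome 9 at 136494433 to 136545786, NOTCH2 on chromosome 1 at 119911553 to 120069626, NOTCH3 on chromosome 19 at 15159038 to 15200981 and NOTCH4 on chromosome 6 at 32194843 to 32224067, all on the minus strand. NOTCH1, a receptor widely used in epithelia and blood cells, stood at 7.18, 4.44 and 7.5 CPM in Vector 1 to 3 and at 78.2, 70.4 and 68.4 CPM in LINC00665 1 to 3. All 3 libraries labelled LINC00665 lay above all 3 labelled Vector. The mean rose 11.4-fold, from 6.38 ± 1.68 to 72.4 ± 5.19 CPM (SD, n = 3), a log2 difference of 3.5 ± 0.23 (SE; adjusted p = 4.7e-06, edgeR).

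NOTCH3, the receptor best known from the smooth muscle and pericytes of blood vessels, was nearly absent under the Vector label. NOTCH3 passed the filter on low counts only through the LINC00665 label, so it could be called higher there but not lower. It had 0 counts in Vector 1 and 2 and 2 counts in Vector 3, and 86.1, 54.2 and 69.5 CPM in LINC00665 1 to 3. The ratio over 4175 and 2 counts was 2076, with an exact 95% binomial interval of 574 to 17150 that covers counting error only. The fitted log2 fold change was 10.76 (SE 0.50, edgeR adjusted p = 8.8e-07), a value that depends on how so low a count is treated: it was 13.43 without Vector 3, and 3.25 on the log2(FPKM + 1) scale. Of 8 fibroblast and mural markers, 2 reached 1 CPM under the Vector label (sum 3.47 to 5.59 CPM, DCN at 0 counts) and 5 under the LINC00665 label (sum 239 to 266 CPM, none at 0 counts). THY1 and COL1A1 held most of the sum under the LINC00665 label, with means of 164.5 and 71.3 CPM. COL3A1, DCN and LUM stayed low there, at 1.39, 0.332 and 0.173 CPM. Mural marker RGS5 was at 1.56 and 0.732 CPM and PDGFRB at 0.217 and 5.32 CPM under the Vector and LINC00665 labels; their part in the NOTCH3 difference was not tested.

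NOTCH2 did not pass the test, with 307, 300.1 and 207 CPM in Vector 1 to 3 and 238, 178 and 226 CPM in LINC00665 1 to 3. The labels overlapped, because Vector 3 lay below LINC00665 1 and 3. The log2 fold change was -0.34 (SE 0.20, 95% interval -0.79 to 0.11, edgeR adjusted p = 0.16). Without Vector 3, NOTCH2 was called lower, with a log2 fold change of -0.51 (edgeR adjusted p = 0.022), and over the alternatives its adjusted p ranged from 0.022 to 0.39. The value is also uncertain because the table holds 4 partial copies of the gene, NOTCH2NLA, NOTCH2NLB, NOTCH2NLC and NOTCH2NLR, which are nearly identical to the start of NOTCH2 and can share its reads.

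These partial copies were all called higher under the LINC00665 label, beside 34.2% of all tested genes. NOTCH2NLA was at 18.2 ± 3.96 and 43.9 ± 1.97 CPM, NOTCH2NLC at 6.37 ± 1.67 and 53.3 ± 1.5 CPM and NOTCH2NLB at 1.17 ± 0.359 and 26.4 ± 2.9 CPM under the Vector and LINC00665 labels (SD, n = 3). NOTCH2NLR had 0 counts under the Vector label and 56 under the LINC00665 label. It passed the filter on low counts only through the LINC00665 label and therefore could be called in that direction alone. When the counts of NOTCH2 and the 4 copies were summed, an alternative chosen after seeing the data, the level was 336, 329 and 227 CPM in Vector 1 to 3 and 358, 309 and 348 CPM in LINC00665 1 to 3. The sum had a log2 fold change of 0.19 (SE 0.18, 95% interval -0.23 to 0.60, edgeR adjusted p = 0.39). This estimate lay on the other side of 0 from that of NOTCH2 alone, but both intervals spanned 0, so neither sign is established. The sum also holds the copies, themselves higher, and is not a value for NOTCH2 alone.

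NOTCH4, a receptor of endothelial cells, was close to the limit of detection in all libraries. It had 7, 12 and 13 counts in Vector 1 to 3 and 11, 3 and 10 counts in LINC00665 1 to 3. The labels overlapped, and the log2 fold change of -0.44 (SE 0.55, 95% interval -1.70 to 0.82, edgeR adjusted p = 0.51) left differences of either sign within its interval. NOTCH4 shares 98 exonic bases with GPSM3 on the same strand, so some of these few reads may belong to its neighbour. Endothelial markers summed to 0.746 to 2.48 CPM under the Vector label, with VWF, KDR, TEK and TIE1 of the 8 at 0 counts, and to 16.3 to 16.7 CPM under the LINC00665 label, with CLDN5 at 0 counts; 0 and 4 of them reached 1 CPM.

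**Figure D2:**
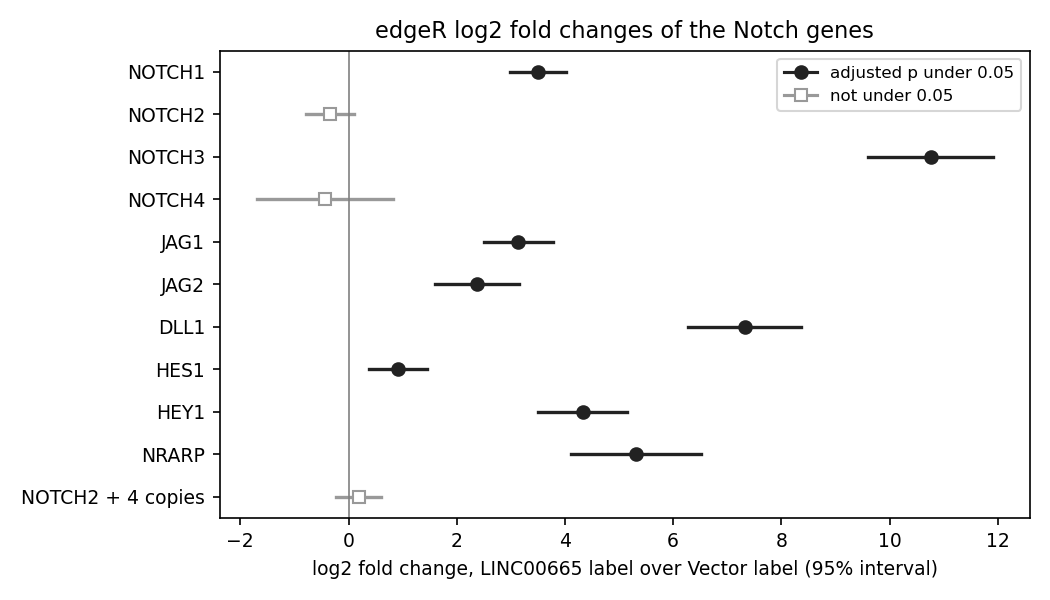
The log2 fold change of each Notch gene, LINC00665 label over Vector label, as fitted by edgeR with its 95% interval; filled circles passed the test and open squares did not, and the last row sums NOTCH2 with its partial copies. The called genes run from 0.91 for HES1 to 10.76 for NOTCH3, and NOTCH2 lies on the other side of 0 from its sum with the copies (-0.34 and 0.19).

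All 3 ligand genes were higher under the LINC00665 label. DLL1 passed the filter on low counts only through that label and therefore could be called in that direction alone. On GRCh38, JAG1 is located on chromosome 20 at 10637684 to 10673999, JAG2 on chromosome 14 at 105140981 to 105168824 and DLL1 on chromosome 6 at 170282206 to 170306565, each on the minus strand. JAG1, a Jagged-type ligand used by many epithelia, was at 39.6, 50.7 and 83.1 CPM in Vector 1 to 3 and at 544, 494 and 490.4 CPM in LINC00665 1 to 3. The highest Vector value, in Vector 3, was far below the lowest LINC00665 value. The mean went from 57.8 ± 22.6 to 509 ± 29.8 CPM, an 8.82-fold rise with a log2 difference of 3.14 ± 0.28 (SE; adjusted p = 2.7e-05, edgeR). Its exons share 79 bases with the antisense gene AL050403.2, and reads of the 2 cannot be told apart where counting ignores strand, which no source used here states.

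JAG2, the second Jagged ligand, had the smallest difference of the ligands. Vector 1 to 3 held 14.9, 5.5 and 12.6 CPM and LINC00665 1 to 3 held 66.6, 55.7 and 48.8 CPM. The labels did not overlap, and Vector 2 stood lowest. The mean rose 5.19-fold, from 11 ± 4.89 to 57.1 ± 8.96 CPM (SD, n = 3), with a log2 difference of 2.37 ± 0.34 (SE; adjusted p = 0.00042, edgeR). JAG2 shares 469 exonic bases with the transcript AL512356.1 on the same strand, which limits how exactly its reads are assigned.

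DLL1, a Delta-like ligand, was present at trace level under the Vector label, with 10, 1 and 6 counts in Vector 1 to 3. In LINC00665 1 to 3 it reached 42.7, 61.8 and 36 CPM. The mean went from 0.277 ± 0.207 to 46.8 ± 13.4 CPM, a ratio of 169 that rests on 17 counts in all under the Vector label, and the log2 fold change was 7.32 (SE 0.45, edgeR adjusted p = 3.6e-06). Without Vector 1 it was 7.92.

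The 3 target genes were higher as well, HES1 by the least. HEY1 and NRARP passed the filter on low counts only through the LINC00665 label, so only HES1 could have been called in either direction. In GRCh38 coordinates HES1 spans positions 194136145 to 194138732 of chromosome 3 (plus strand), HEY1 79764010 to 79767863 of chromosome 8 (minus strand) and NRARP 137300482 to 137302251 of chromosome 9 (minus strand). HES1 encodes a basic helix-loop-helix repressor that also binds its own promoter, the one shown above with 4 matches to CACGNG. Its level was 29, 45 and 26.8 CPM in Vector 1 to 3 and 58, 76.5 and 55 CPM in LINC00665 1 to 3. Vector 2 came nearest to the LINC00665 libraries without reaching them. The mean rose 1.88-fold, from 33.6 ± 9.98 to 63.2 ± 11.6 CPM (SD, n = 3), with a log2 difference of 0.91 ± 0.24 (SE; adjusted p = 0.0092, edgeR). Over all alternatives the adjusted p of HES1 lay between 0.00075 and 0.043.

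HEY1, a related repressor that acts with or beside HES proteins, had 5, 3 and 8 counts in Vector 1 to 3 and 111, 109 and 110 counts in LINC00665 1 to 3. These are 0.271 ± 0.128 and 5.6 ± 0.394 CPM, a 20.7-fold difference with a log2 difference of 4.33 ± 0.36 (SE; adjusted p = 1.9e-05, edgeR). The LINC00665 libraries were nearly equal to each other, at 5.16, 5.73 and 5.92 CPM.

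NRARP encodes a small ankyrin repeat protein that binds the Notch-RBPJ complex and dampens it, and is itself switched on by Notch. It stood at 0.559, 0.278 and 1.97 CPM in Vector 1 to 3 and at 34.2, 41.8 and 36.3 CPM in LINC00665 1 to 3. Vector 3 was the highest of its label and still far below every LINC00665 library. The mean rose 40.1-fold, from 0.934 ± 0.905 to 37.5 ± 3.92 CPM, with a log2 difference of 5.31 ± 0.52 (SE; adjusted p = 5.1e-05, edgeR). Vector 3 held 38 of the 55 Vector counts, and without it the log2 difference was 6.43.

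Replicates of the Vector label varied more than those of the LINC00665 label for 9 of the 10 members, NOTCH4 being the exception. The coefficient of variation was 39.1% against 5.85% for JAG1, 96.8% against 10.5% for NRARP, and 26.4% against 7.17% for NOTCH1. NOTCH3, DLL1, HEY1 and NRARP had only 2, 17, 16 and 55 Vector counts in all, so their Vector coefficients also hold counting error. The share of all genes that varied more under the Vector label is not given here. Vector 3 held the highest NOTCH1, NOTCH3, NOTCH4, JAG1, HEY1 and NRARP and the lowest NOTCH2 and HES1 values of its label. With 3 libraries a label, the order among replicates was not tested.

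Levels were set side by side on the deposited FPKM, which is per gene length. Under the Vector label NOTCH2 (25.8 ± 5.15 FPKM) and HES1 (22.5 ± 6.37 FPKM) came first and overlapped each other. JAG1 followed at 10.3 ± 4.02 and JAG2 at 2.02 ± 0.922 FPKM, each separated from its neighbours. NOTCH1, NRARP, HEY1, NOTCH4 and DLL1 had means from 0.73 down to 0.08 FPKM, each overlapping the next, and NOTCH3 was listed at 0 in 2 libraries and at 0.01 FPKM in Vector 3. Under the LINC00665 label JAG1 came first at 82.5 ± 5.67 FPKM, then HES1 at 37.8 ± 5.9 and NOTCH2 at 18.8 ± 2.99 FPKM, with no overlap among them. NRARP, DLL1, JAG2, NOTCH3 and NOTCH1 formed a group of overlapping neighbours from 13.4 ± 1.14 to 7.48 ± 0.568 FPKM, and HEY1 (2.68 ± 0.312 FPKM) and NOTCH4 (0.0567 ± 0.0322 FPKM) came last. The leading gene of the family was thus a receptor and a target under the Vector label and a ligand under the LINC00665 label.

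The make-up of receptor mRNA differed between the labels. NOTCH2 held 97.2, 98 and 95.1% of the summed FPKM of the 4 receptors in Vector 1 to 3 and 52.7, 53.4 and 54.7% in LINC00665 1 to 3. The balance was made up by NOTCH3, at 26.5, 21.1 and 26.4%, and NOTCH1, at 20.7, 25.5 and 18.6%, in LINC00665 1 to 3. Under the Vector label NOTCH1 held 2.89 ± 1.33% and NOTCH3 0.0159 ± 0.0276% (SD, n = 3). The summed receptor FPKM was 30.3, 28.6 and 20.9 in Vector 1 to 3 and 39.1, 28.8 and 37.5 in LINC00665 1 to 3, so the labels overlapped in total, Vector 1 and LINC00665 2 crossing. These shares take NOTCH2 as the table gives it, without its partial copies.

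Among the 3 ligands JAG1 dominated under both labels. It made up 82.3 ± 9.84% of the summed ligand FPKM in Vector libraries and 79.7 ± 3.07% in LINC00665 libraries. The share of DLL1 was 0.674 ± 0.562 and 11.3 ± 3.09%, and that of JAG2 was 17 ± 9.28 and 9 ± 0.847%. In total the ligand FPKM was 10, 9.9 and 17.2 in Vector 1 to 3 and 110, 101 and 99.4 in LINC00665 1 to 3. For the 7 shares compared, the two-sided exact permutation p was 0.1 for NOTCH1, NOTCH2, NOTCH3, JAG2 and DLL1, 0.3 for NOTCH4 and 0.7 for JAG1. The smallest p that 3 against 3 libraries can give is 0.1, so no share could pass 0.05, and the Benjamini-Hochberg adjusted values over the 7 shares were 0.14, 0.35 and 0.7.

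**Figure D3:**
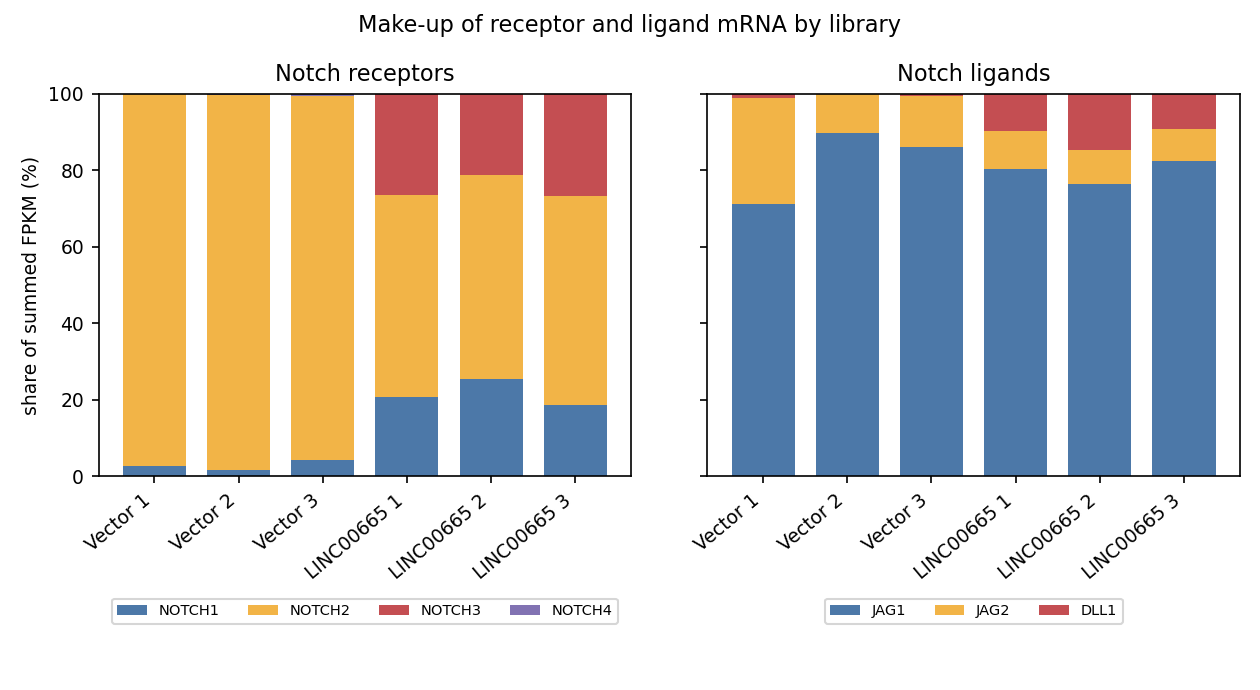
Share of each gene in the summed FPKM of the 4 receptors (left) and the 3 ligands (right), 1 bar per library. NOTCH2 fills 95.1 to 98% of the receptor bars under the Vector label and 52.7 to 54.7% under the LINC00665 label, and JAG1 is the largest part of every ligand bar.

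The other genes of the pathway, taken from 7 lists of 77 genes, moved in both directions. Of 68 that passed the filter on low counts, 25 were higher, 22 lower and 21 did not pass the edgeR test, beside 34.2% higher and 29.3% lower over all genes. The median log2 fold change was 0.26. Of the 25 higher genes, 10 passed the filter only through the LINC00665 label. The lists, like the members, were chosen with earlier results of these data known.

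Of 10 further ligands and ligand-like proteins, 7 were tested, 4 were higher and 2 lower, beside 34.2% higher and 29.3% lower over all genes. All 4 higher genes passed the filter through the LINC00665 label only, so they could be called in that direction alone. With a mean of 1 CPM or more under both labels 0 were higher, beside 28.6% over all such genes, and 1 was lower. DLL4, the Delta-like ligand known from sprouting vessels, was at 0.165 ± 0.0959 and 6.98 ± 0.651 CPM under the Vector and LINC00665 labels. DNER, a transmembrane protein with EGF repeats, was at 0.19 ± 0.0438 and 28.7 ± 2.22 CPM (log2 difference 7.21 ± 0.25 SE, edgeR adjusted p = 2.6e-07). MFAP2, a microfibril protein, rose from 2 to 2376 counts in all, a ratio of 1182 after correction for summed library size (95% counting interval 327 to 9762), and CNTN1, a cell adhesion protein, had 0 counts under the Vector label and was at least 262-fold higher against a floor of 3 counts over the group. DLL3 fell from 1.1 ± 0.15 to 0.358 ± 0.145 CPM and EGFL7 from 6.23 ± 0.761 to 2.89 ± 0.55 CPM.

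Of 9 genes of the cleavage machinery tested, 1 was higher, 4 were lower and 4 did not pass, with a median of -0.39, beside 34.2% higher and 29.3% lower over all genes. The number higher ranged from 0 to 2 over the alternatives. ADAM10, the protease of the first ligand-induced cut, stood at 228, 177 and 156 CPM in Vector 1 to 3 and 79.3, 68.8 and 71.7 CPM in LINC00665 1 to 3. The labels did not overlap, and its log2 fold change was -1.35 (SE 0.18, edgeR adjusted p = 0.00024). NCSTN (nicastrin) and APH1B, subunits of gamma-secretase, fell by 1.27 and 2.10 on the log2 scale (SE 0.16 and 0.50, adjusted p = 0.00018 and 0.0065). APH1B was uneven among the controls, at 14.6, 45.8 and 11.1 CPM in Vector 1 to 3.

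Enzymes that place sugars on the EGF repeats of the receptors went both ways. Of 8 tested, 3 were higher and 4 lower (median -0.54), beside 34.2% higher and 29.3% lower over all genes. GXYLT2, among the higher, passed the filter through the LINC00665 label only. LFNG, the Lunatic fringe enzyme that shifts receptors toward Delta-like ligands, was at 1.4, 1.5 and 0.776 CPM in Vector 1 to 3 and 18.3, 18.3 and 14.9 CPM in LINC00665 1 to 3. Its log2 fold change was 3.80 (SE 0.28, edgeR adjusted p = 9.6e-06), and GXYLT2, a xylosyltransferase, rose from 0.153 ± 0.0899 to 5.88 ± 0.896 CPM. EOGT, which adds N-acetylglucosamine, fell from 42.1 ± 7.31 to 12 ± 1.96 CPM, and POFUT1, which adds the fucose that fringe enzymes extend, fell from 199 ± 69.9 to 84.3 ± 9.06 CPM.

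Of 15 ubiquitin ligase and trafficking genes tested, 10 were higher, 2 lower and 3 did not pass, with a median of 0.86, beside 34.2% higher over all genes. Of the 10, 4 passed the filter through the LINC00665 label only, and with a mean of 1 CPM or more under both labels 6 were higher, beside 28.6% over all such genes. The Deltex ligases differed in size among themselves. DTX4 was at 0.293 ± 0.145 and 167 ± 12.9 CPM and DTX2 at 14.7 ± 1.66 and 368 ± 49.5 CPM (log2 fold changes 9.14 and 4.64, adjusted p = 1.7e-07 and 4.2e-07). DTX3 and NEURL1, a ligase that acts on ligands, had 0 counts under the Vector label and were at least 305-fold and 399.5-fold higher. DTX3L was at 28.2 ± 7.62 and 49.2 ± 8.26 CPM, a log2 difference of 0.81 (edgeR adjusted p = 0.013). DTX1, the Deltex gene known as a Notch target in lymphocytes, had 0 and 2 counts and was not tested. MIB1, the main ligase of ligand endocytosis, was at 69.6 ± 7.1 and 58.9 ± 10.8 CPM and did not pass (adjusted p = 0.26).

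The nuclear proteins that turn the signal into transcription differed gene by gene. RBPJ was at 45.5, 63.5 and 38.7 CPM in Vector 1 to 3 and at 48.1, 45.6 and 50.3 CPM in LINC00665 1 to 3. The labels overlapped, and its log2 fold change of -0.04 (95% interval -0.49 to 0.42, edgeR adjusted p = 0.88) leaves room for a difference of that size in either direction. Of the 9 coactivator genes tested, 1 was higher and 4 were lower (median -0.11), beside 34.2% higher and 29.3% lower over all genes. MAML2, a Mastermind coactivator, rose from 5.5 ± 1.36 to 91.7 ± 8.39 CPM (log2 difference 4.06 ± 0.22 SE, edgeR adjusted p = 1.6e-06), while MAML1 was at 105 ± 18.6 and 97.2 ± 7.33 CPM and did not pass. The histone acetyltransferases EP300 and CREBBP fell by 1.95 and 1.11 on the log2 scale (SE 0.19 and 0.22, adjusted p = 5.6e-05 and 0.0024).

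Of 16 corepressor genes tested, 4 were higher, 6 lower and 6 did not pass (median 0.20), beside 34.2% higher and 29.3% lower over all genes. The TLE genes, of the Groucho family, were not all called in the same direction. TLE1 rose from 26.1 ± 5.11 to 143 ± 11.1 CPM, TLE3 from 35 ± 11.1 to 105 ± 6 CPM and TLE4 from 19.6 ± 0.988 to 47.4 ± 0.985 CPM. TLE5 fell from 352 ± 53.2 to 238 ± 18.4 CPM (edgeR adjusted p = 0.012), and TLE2 was at 3.78 ± 4.5 and 6.09 ± 0.823 CPM and did not pass (adjusted p = 0.43). HDAC1, a histone deacetylase, fell from 269 ± 8.53 to 141 ± 5.85 CPM, and SPEN, a corepressor that binds RBPJ, did not pass at 115 ± 14 and 110 ± 25.9 CPM.

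Of the other 8 HES and HEY genes, 4 were tested, 2 were higher and 0 lower, beside 34.2% higher and 29.3% lower over all genes. HES2 passed the filter through the LINC00665 label only, so it could be called in that direction alone. HES4 was at 1.31, 0.555 and 2.17 CPM in Vector 1 to 3 and 44.9, 64.4 and 40.9 CPM in LINC00665 1 to 3, a log2 difference of 5.20 ± 0.42 (SE; adjusted p = 1.7e-05, edgeR). HES2 rose from 0.31 ± 0.0677 to 15.4 ± 1.27 CPM, and HES7 was at 3.3 ± 0.835 and 4.33 ± 0.534 CPM and did not pass (adjusted p = 0.22). HES5 and HEYL, common readouts of Notch in neural and mural cells, had 0 counts under the Vector label and 2 each under the LINC00665 label, and this depth cannot show a difference in them.

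**Figure D4:**
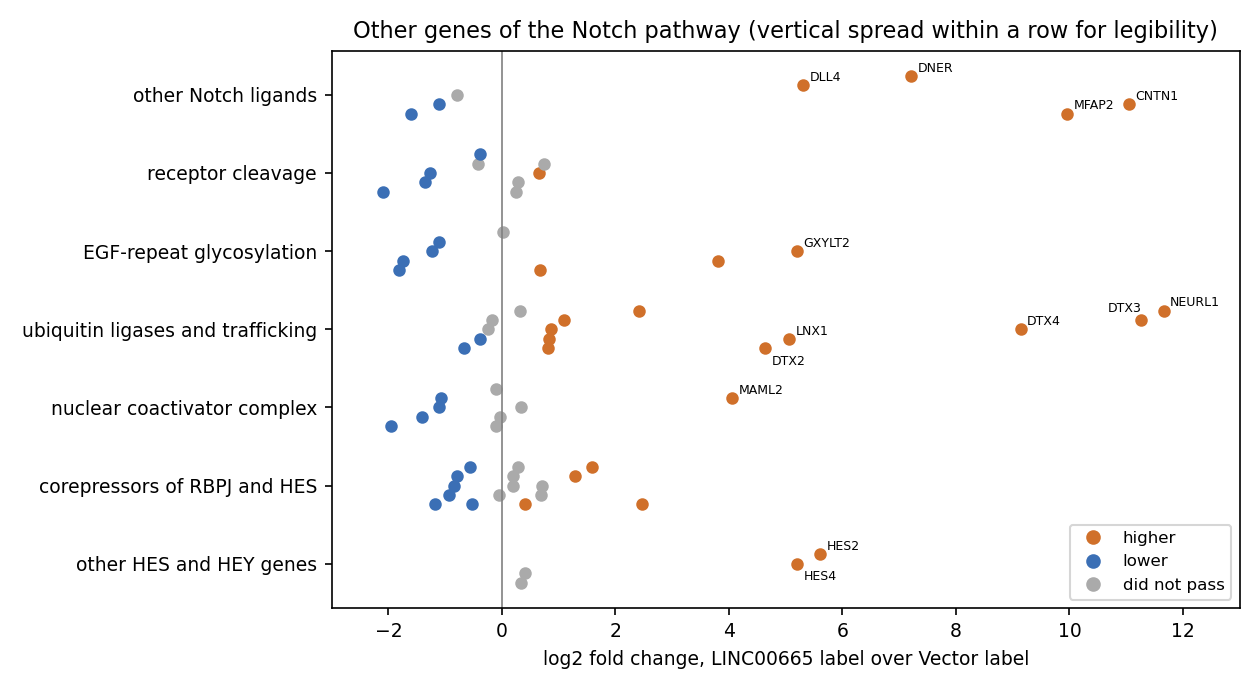
Log2 fold change of the 68 tested pathway genes outside the 10, 1 row per list, coloured by the edgeR call; height within a row has no meaning and genes beyond 4 are named. The other ligands and the ubiquitin ligases reach past 9 (MFAP2 at 9.96, NEURL1 at 11.66), while the cleavage genes stay between -2.10 and 0.75.

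To describe the pattern of the first gene of each role, the tested genes nearest to it were found by the root mean square difference of log2 CPM over the 6 libraries, each gene centred on its own mean, among 11118 genes with a mean of at least 5 CPM. Nearest to NOTCH1 were AJUBA (0.064) and BRPF1 (0.105), at 16.3 and 171 CPM and at 37.5 and 425 CPM under the Vector and LINC00665 labels. For JAG1 they were FOXA1 (0.142) and ASPHD1 (0.156), and for HES1 FCGRT (0.076) and STN1 (0.095). The 6 points share their libraries with the comparison itself, so such likeness mainly reflects a difference of similar size between the labels.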

How the data were processed

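RNA was measured in 6 libraries. Per the labels' protocols RNA was extracted with TRIzol and libraries made with an Illumina TruSeq kit. HISAT2 2.0.4 and hg38 are named, without a role, per the submitters' processing notes. How reads were counted, and whether by strand, is not given in the sources used here. The authors deposited an expected count per gene and library, not normalised, and FPKM values scaled by the authors for gene length and depth, per the file headers.

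Counts were rounded, filtered with filterByExpr (minimum count 10), scaled by TMM and tested with edgeR 4.0.16 (glmQLFit, glmQLFTest; R 4.3.3), Benjamini-Hochberg over 13552 genes, threshold 0.05. Standard errors are the log2 difference divided by the root of F. Shares used FPKM and a two-sided exact permutation test. Alternatives were other scalings and filters, DESeq2 1.42.0, limma 3.58.1 (voom, and trend on log2(FPKM + 1) or log2(FPKM + 0.1)), the replicate block and leaving out each library; a filter on both labels and summed NOTCH2 copies were chosen after seeing the data. Replicate pairs of a label differed by more than sampling noise (chi-square over its degrees of freedom 10.3 to 123), so none was counted as a duplicate. Genes used in the sample check were left out of the text. Some list genes and 1 marker list are not reported here.

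Members and lists were chosen with earlier results of these data known. Named genes are the 10 members, the 3 list genes with the smallest p and the 2 nearest genes of NOTCH1, JAG1 and HES1; any further gene was picked with its values known. TLE5 was matched through its older symbol AES. Positions are from GENCODE (GRCh38, the assembly also called hg38). Intervals cover counting error only where reads are counted, as the reads carry no molecular identifiers.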

Additional observations from a re-analysis of the deposited data

How the results depend on the processing

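The 8 called members kept their direction and their call in all alternatives that tested them. NOTCH2 was the exception among the uncalled genes: leaving out 1 library gave log2 fold changes from -0.51 to -0.25 (from 0 to 1 members called lower), and summing it with its copies gave 0.19. Leaving out libraries moved other counts from 0 to 2 (cleavage genes higher), 0 to 2 (ubiquitin ligase genes lower) and 1 to 2 (coactivators higher). Cleavage genes higher, 1 in the test used here, were 0 by total-count scaling and on either FPKM scale and 2 by DESeq2, and coactivators higher were 2 by DESeq2 and with size factors in place of TMM. Ligands lower were 1 with the filter at 1 CPM in 3 libraries. With a mean of 1 CPM or more under both labels, 4 members, 0 other ligands, 6 ubiquitin ligase genes, 2 coactivators and 1 HES or HEY gene were higher, and 1 ligand and 1 ubiquitin ligase gene were lower. Fewer genes were tested under this filter, which left out NOTCH3, DLL1, HEY1 and NRARP among the called members. All 9 coactivators had means above 1 CPM under both labels, as did NUMBL and NEDD4, the ubiquitin ligase genes lower in the test used here. The cause of the changes in coactivators higher, in ubiquitin ligase genes lower and under the other settings was not tested. Shares from CPM under the LINC00665 label were 59.95% for NOTCH2, 19.5% for NOTCH3, 83.1% for JAG1 and 7.64% for DLL1, as CPM is not per length. Total-count scaling moved the median log2 fold change of all genes by -0.16 and turned the balance of calls, to 4174 higher and 4770 lower from 4634 and 3977. With the replicate block, ubiquitin ligase genes lower numbered 1 and no member's call changed; same-numbered libraries correlated by 0.22, -0.16 and -0.20 across genes in their deviations, so the numbers were not taken as pairs. Depth limits NOTCH3, HEY1, DLL1 and NOTCH4 under the Vector label, at 2, 16, 17 and 32 counts in all.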
